A study of Rattus norvegicus with 12 samples.

Results

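The genes described here mark the cells that accompany astrocytes in a dissected cortex: fibroblasts of the meninges, the membranes around the brain, and the mural and endothelial cells of blood vessels. The 10 genes are Col1a1, Col1a2, Col3a1, Dcn, Lum, Pdgfrb, Rgs5, Acta2, Pecam1 and Cldn5. Each was read from the row of the value table that the platform annotation pairs with that 1 gene. Such a row was found for 8 of the 10, among 18166 genes in all, and Acta2 and Pecam1 are not analysed here. RNA was measured on 12 arrays of primary astrocyte cultures from the cerebral cortex of Sprague-Dawley rats, prepared at age 1 day, in 4 groups of 3. The groups, all transfected with an siRNA, were SHP siRNA with IFN-γ and a compound named only as GW (siSHP_IFNg_GW), control siRNA with IFN-γ and GW (siCon_IFNg_GW), control siRNA with IFN-γ (siCon_IFNg) and control siRNA alone (siCon). Treatment lasted 3 h. Before use, all cultures had spent 2 days in serum-free medium, a step meant to remove microglia and meningeal cells. None of the 12 arrays was taken before that step, so its effect was not tested. The leading number in each sample title, 1, 2 or 3, is used below to name the arrays of a group, and the labels do not say what it stands for.

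Meningeal fibroblasts make the interstitial matrix that astrocytes of the brain tissue largely lack. Type I collagen is a triple helix of the chains encoded by Col1a1 and Col1a2, and type III collagen is built from Col3a1. Decorin (Dcn) and lumican (Lum) are small leucine-rich proteoglycans that bind collagen fibrils. Pericytes and smooth muscle cells, the mural cells of vessels, carry the receptor for platelet-derived growth factor B (Pdgfrb), and Rgs5, a regulator of G protein signalling, is a common pericyte marker. Claudin-5 (Cldn5) seals the tight junctions of brain endothelium. Interferon-γ is a cytokine of T cells and natural killer cells, and SHP is a nuclear receptor, read here as the product of Nr0b2.

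Promoter sequences, from 250 bases before to 50 bases after the start of transcription, were listed by RefSeq (build GRCr8) for 5 of the 10 genes. Those of Col1a2, Lum and Cldn5 are shown, the ones that held a CCAAT match. The first 2 passed the test between array numbers described below, as did Rgs5, which is not shown. Cldn5 passed no test. The plus-strand regions are chr4:33518307-33518606 for Col1a2 and chr7:34245456-34245755 for Lum, and Cldn5 is read from the minus strand of chr11:95718549-95718848. Capitals mark matches to CCAAT, read as ATTGG where they lie on the other strand, and to TATAAA.
Col1a2: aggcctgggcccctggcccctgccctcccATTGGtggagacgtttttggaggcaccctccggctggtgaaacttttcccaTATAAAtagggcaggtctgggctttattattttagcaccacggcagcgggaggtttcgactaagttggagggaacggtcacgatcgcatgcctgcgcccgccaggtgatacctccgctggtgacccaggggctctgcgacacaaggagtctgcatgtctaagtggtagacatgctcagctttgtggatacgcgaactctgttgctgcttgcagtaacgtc
Lum: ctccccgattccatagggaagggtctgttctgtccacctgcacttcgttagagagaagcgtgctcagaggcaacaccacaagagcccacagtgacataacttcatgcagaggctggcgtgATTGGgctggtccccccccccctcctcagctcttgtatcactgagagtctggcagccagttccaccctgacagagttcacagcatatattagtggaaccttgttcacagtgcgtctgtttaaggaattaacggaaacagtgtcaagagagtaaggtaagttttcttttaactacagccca
Cldn5: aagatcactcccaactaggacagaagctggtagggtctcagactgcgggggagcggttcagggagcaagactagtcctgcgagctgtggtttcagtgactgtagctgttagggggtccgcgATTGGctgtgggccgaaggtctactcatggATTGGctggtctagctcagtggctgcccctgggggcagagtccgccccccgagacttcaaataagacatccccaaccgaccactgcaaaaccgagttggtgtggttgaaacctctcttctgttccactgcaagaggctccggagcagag
A CCAAT match began 221 bases before the listed start of Col1a2 and 130 bases before that of Lum, and Cldn5 had 2, at 129 and 99 bases before. Among genes that differed between array numbers, the motif was thus found in Col1a2 and Lum but not in Rgs5, and it was also found in Cldn5. Of 33469 promoters of this length, 37.5% held it on either strand. Col1a2 also held TATAAA, 170 bases before the listed start, a motif of 14.2% of all promoters. TTCNNNGAA, a motif of 8.87% of all promoters, was searched too and had no match in these genes. CAGAC, a motif of 50.1%, had a match in each of the 5 listed promoters.

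All values are log2 expression as the authors deposited them. A gene was read as at background at or under 5.32, the 95th percentile of 1383 olfactory, vomeronasal and taste receptor genes. By that limit 7 of the 8 genes were over background on 3 or more arrays, and Cldn5 was not. The labelled cell type was checked against its markers, and all 12 astrocyte genes measured averaged over background, with a median of 10.69. Of markers of other cells, 15 of 15 microglial genes, 20 of 21 fibroblast matrix genes, 21 of 23 leptomeningeal genes and 15 of 18 mural genes averaged over background. So did 10 of 11 oligodendrocyte and 6 of 10 neuronal genes. The limit is low: the median of all genes was 6.55, and 12956 of 18166 genes were over 5.32 on 3 or more arrays. A count over the limit therefore does not by itself show that a cell type was present. Of 20 endothelial genes 11 averaged over background, the highest being Ocln (8.53), Cdh5 (8.01), Mfsd2a (7.30) and Flt1 (6.67). The endothelial genes Tek, Tie1, Emcn, Erg, Sox17, Sox18, Robo4, Plvap and Vwf did not exceed 5.32 on average. The siRNA's target could not be checked, since Nr0b2 was at or under background on all 12 arrays, at 4.96 ± 0.16 in siSHP_IFNg_GW and 4.80 ± 0.11 in siCon_IFNg_GW (SD, n = 3 each; limma adjusted p = 1.0000). The labels name no culture or animal for an array. Each p-value below therefore rests on variation among the arrays alone, and some of it may be technical.

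Most of these genes had a lower level on the number 1 array of every group. The fibrillar collagens and the proteoglycans were lower there than on numbers 2 and 3. Rgs5 was lower over the groups together but overlapped in siSHP_IFNg_GW, while Pdgfrb and Cldn5 did not pass the test. With treatment group in the model, 6 of the 8 genes were lower and 0 higher on number 1 (limma, adjusted p under 0.05 over all genes). Of all genes 17.2% were lower by that test, 20.4% were higher and 37.6% differed either way. The median measured difference was -1.78 over the 8 genes and 0.03 over all genes. With the genes at background on number 1 set at their bounds, given below, the median of the 8 was -1.06. Among the 3 chains measured over background on all arrays, Col1a1 ranked 12, Col1a2 26 and Col3a1 35 from the lowest measured difference of 18166 genes. The 4 arrays numbered 1 were all below the other 8 for the 3 chains, Dcn and Lum, as for 9.84% of all genes. Lum was at background on all 4 and on 3 of the other 8, so its order lies partly under the background limit. The arrays numbered 1 were known to stand apart in these data before this contrast was chosen. Its p-values are therefore no independent test that number 1 differs. Arrays of a number also deviated together from their group means, so 4 against 8 arrays overstates the replication.

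**Figure D1:**
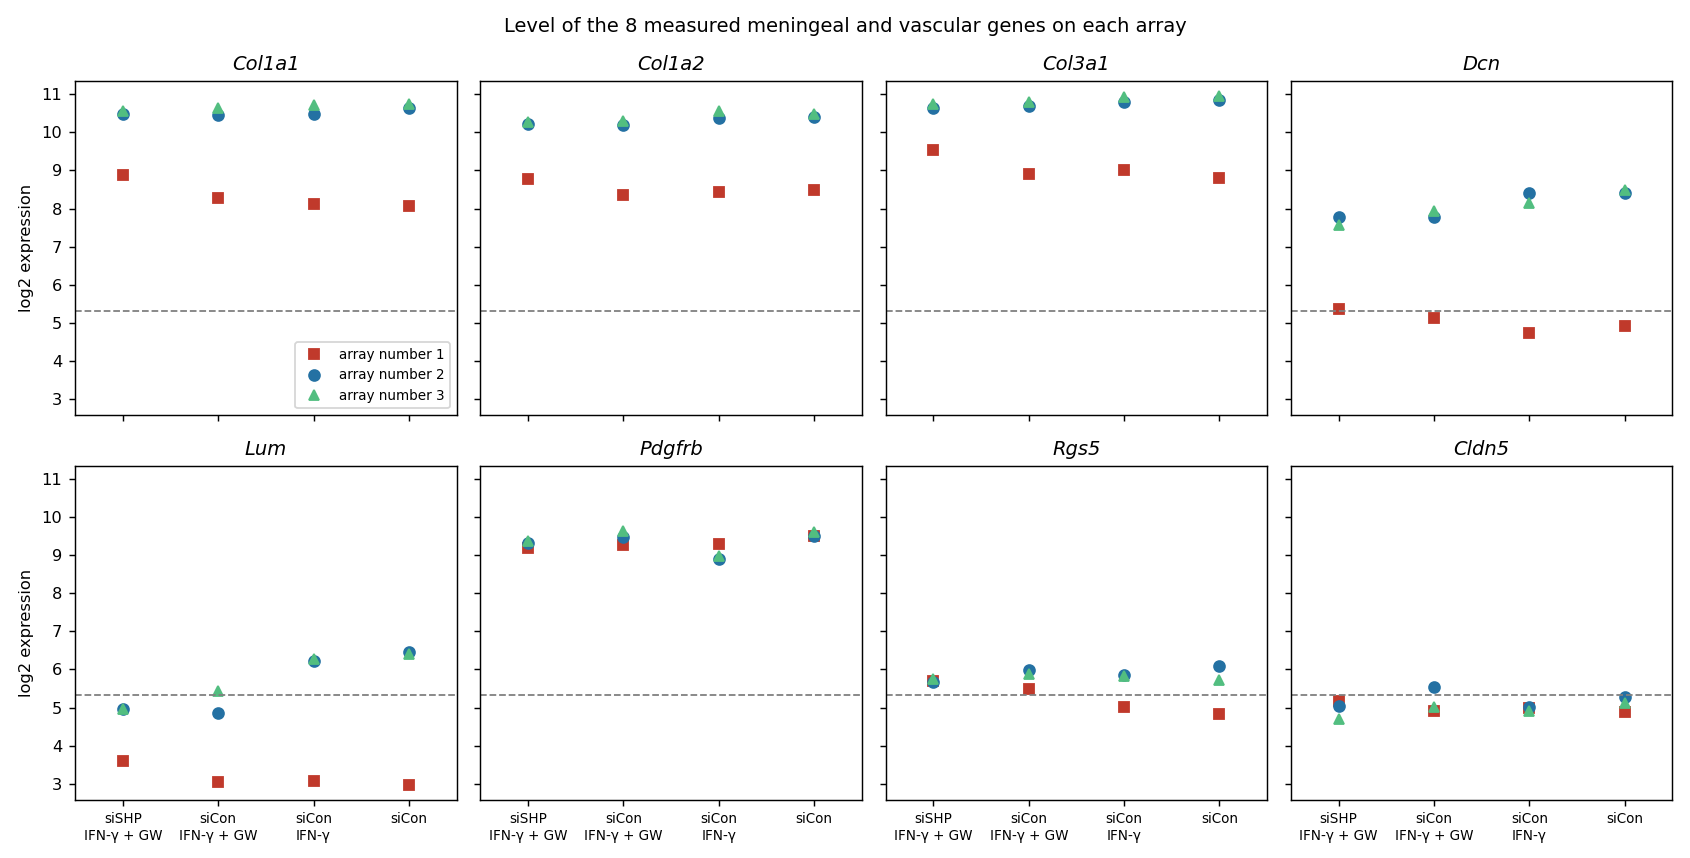
Log2 expression of the 8 genes on each of the 12 arrays, by treatment group along the horizontal axis and title number by colour and shape; the dashed line is the background level of 5.32. Arrays numbered 1 lie below those numbered 2 and 3 for the collagens, Dcn and Lum in all 4 groups, while the points of Pdgfrb mix.

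Col1a1 was at 8.88 in siSHP_IFNg_GW, 8.28 in siCon_IFNg_GW, 8.11 in siCon_IFNg and 8.06 in siCon on the arrays numbered 1. On numbers 2 and 3 it was at 10.47 and 10.57 in siSHP_IFNg_GW, 10.47 and 10.65 in siCon_IFNg_GW, 10.47 and 10.71 in siCon_IFNg and 10.63 and 10.74 in siCon. No array numbered 1 reached any other array, and numbers 2 and 3 lay close together. The difference was -2.26 ± 0.13 (SE), or 4.78-fold lower on number 1 (n = 4 against 8 arrays, limma adjusted p = 1.34e-06). Its partner chain Col1a2 was at 8.79, 8.36, 8.45 and 8.49 on the arrays numbered 1 of siSHP_IFNg_GW, siCon_IFNg_GW, siCon_IFNg and siCon, against 10.19 to 10.57 on the other 8. It was 3.55-fold lower (-1.83 ± 0.09, adjusted p = 6.32e-07). Col3a1 was at 9.54, 8.91, 9.01 and 8.80 on number 1 in the same order of groups, against 10.65 to 10.95 on the others. It was 3.32-fold lower (-1.73 ± 0.12, adjusted p = 4.02e-06). For all 3 chains the number 1 array of siSHP_IFNg_GW was the highest of the 4, and still below every array numbered 2 or 3. How many of all genes were highest on that array among the 4 was not counted.

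The proteoglycan Dcn was at 5.37 in siSHP_IFNg_GW, 5.13 in siCon_IFNg_GW, 4.74 in siCon_IFNg and 4.93 in siCon on number 1, so 3 of these 4 arrays were at background. On numbers 2 and 3 it was at 7.79 and 7.57, 7.78 and 7.94, 8.40 and 8.14, and 8.41 and 8.50 in the same groups. The groups of arrays did not overlap, and the measured difference was -3.03 ± 0.18 (adjusted p = 1.62e-06). Because of the arrays at background it is a bound, at least 6.65-fold lower on number 1. Lum was at 3.61, 3.04, 3.08 and 2.99 on number 1, all at background, against 4.97 and 4.96 in siSHP_IFNg_GW, 4.85 and 5.43 in siCon_IFNg_GW, 6.22 and 6.27 in siCon_IFNg and 6.46 and 6.40 in siCon on numbers 2 and 3. Of those 8 arrays 3 were at background too, all of them with GW. The measured difference of -2.52 ± 0.28 (adjusted p = 6.31e-05) therefore allows only the statement that Lum was at least 1.30-fold lower on number 1.

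The mural genes differed from each other. Rgs5 was at 5.69 in siSHP_IFNg_GW, 5.48 in siCon_IFNg_GW, 5.03 in siCon_IFNg and 4.84 in siCon on number 1, the last 2 at background, and at 5.68 to 6.08 on the other arrays. It was lower on number 1 by the test (-0.59 ± 0.14, adjusted p = 0.0070), at least 1.32-fold, although the sets of arrays overlapped in siSHP_IFNg_GW. Pdgfrb was at 9.19, 9.26, 9.30 and 9.50 on number 1 and at 8.91 to 9.63 on numbers 2 and 3, so the arrays mixed. Its difference was -0.03, with a 95% interval of -0.24 to 0.17 (adjusted p = 0.80), and with the arrays centred on their medians it was 0.06. Cldn5 was between 4.69 and 5.53 on all 12 arrays and over background on 1 of them, number 2 of siCon_IFNg_GW, and its difference was -0.09 (95% interval -0.33 to 0.15, adjusted p = 0.57).

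Between numbers 2 and 3, 0 of the 8 genes and 0.0% of all genes passed (limma; 0 of the 8 and 456 of all genes had an unadjusted p under 0.05). The widest interval of these differences was that of Lum, -0.85 to 0.57. In each of the 16 alternative settings the same 6 genes stayed lower on number 1, and the highest adjusted p among them was 0.0327, for Rgs5. In RNA of whole cultures, fewer cells of a type and less RNA per cell cannot be told apart. The labels give no batch. The series text mentions 4 arrays carried over from an older series and ties none of them to a title, and the source of the difference was not tested.

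**Figure D2:**
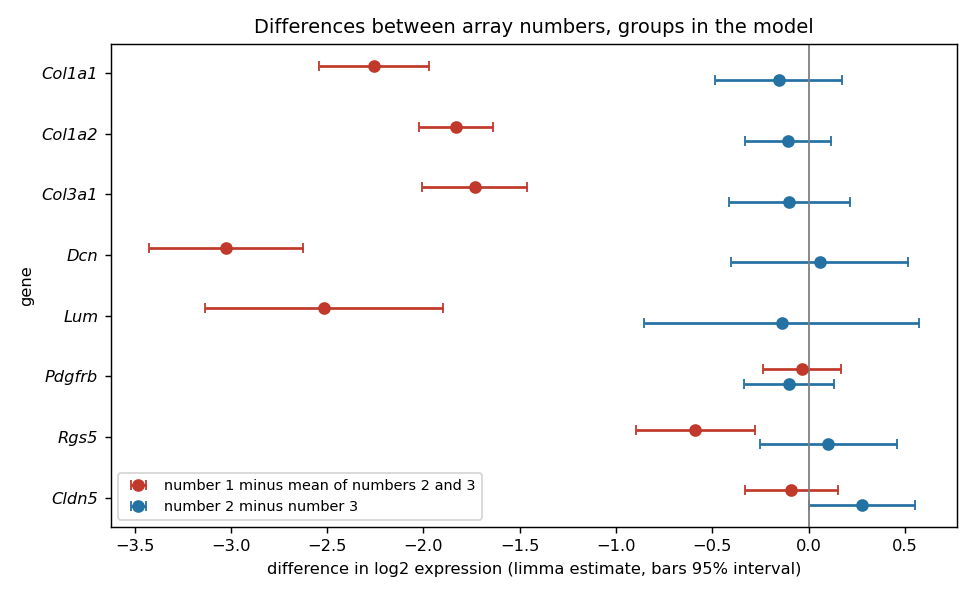
Difference in log2 expression between arrays of different title numbers for the 8 genes, from limma with treatment group in the model; points are estimates, bars 95% intervals, red for number 1 minus the mean of numbers 2 and 3, blue for number 2 minus number 3. The red intervals of 6 genes lie below 0, and those of Pdgfrb and Cldn5 include it, as do all blue intervals.

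Genes of the same matrix and cell types were examined in 6 further lists of 115 measured genes. On number 1, 61 of the 115 were lower and 15 higher, with a median of -0.24, where 17.2% of all genes were lower and 20.4% higher. Of 21 other fibroblast matrix genes, 16 were lower and 2 higher, with a median of -0.61. Fbln2, a glycoprotein of elastic and basement membrane matrix, was 4.96-fold lower (-2.31, adjusted p = 3.22e-08). The network collagen Col8a1 differed by -1.77, the basement membrane collagen Col4a2 by -1.27 and the microfibril protein Fbn1 by -1.34. Higher on number 1 were the proteoglycan Fmod (0.33) and elastin, Eln (0.41), while Sparc, a collagen-binding glycoprotein, was at -0.09 and did not pass (adjusted p = 0.25). The matrix genes therefore did not move as one.

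Of 23 leptomeningeal genes, 16 were lower and 2 higher, with a median of -0.75. Igf2, a growth factor made by leptomeninges and choroid plexus, was 9.17-fold lower (-3.20, adjusted p = 2.60e-07), and the hyaluronan-degrading protein Cemip 6.33-fold lower (-2.66). The transcription factor Tbx18 differed by -1.64 and Crabp2, which carries retinoic acid, by -1.43. Aldh1a2, the enzyme that makes retinoic acid, differed by -1.97. Ptgds, a prostaglandin D synthase of leptomeninges, was at 0.18 and did not pass. Genes for collagen modification and crosslinking were mixed: of 17, 9 were lower and 2 higher, with a median of -0.22. The crosslinking oxidases Loxl2 (-1.46) and Lox (-1.43) and the procollagen processing enhancer Pcolce (-0.93) were lower, whereas the prolyl hydroxylase subunit P4ha3 was 1.97-fold higher (0.98, adjusted p = 1.19e-06). Serpinh1, the collagen chaperone, was lower by a small amount (-0.22, adjusted p = 0.024).

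Of 18 mural genes beyond the members, 10 were lower and 0 higher, with a median of -0.24. Among those with the smallest p were contractile genes, the tropomyosins Tpm1 (-0.73) and Tpm2 (-0.91) and the smooth muscle myosin Myh11 (-0.58), while Tagln (-0.03) and the pericyte proteoglycan Cspg4 (0.10) did not pass. Of 20 endothelial genes, 5 were lower and 3 higher, with a median of 0.04. That is near the 37.6% of all genes that differed either way, so nothing particular to this list is read from the count. VE-cadherin, Cdh5, and the VEGF receptor Flt1 were lower (-1.11 and -1.02), and the tight junction protein Ocln was higher (0.72). Of 16 TGF-β and PDGF pathway genes, 5 were lower and 6 higher. The ligands Tgfb3 (0.95), Tgfb1 (0.80) and Pdgfc (0.35) were higher, and Tgfbi, a matrix protein named for its induction by TGF-β, was 5.99-fold lower (-2.58).

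Marker lists of other cell types were compared between array numbers too, where 37.6% of all genes passed, 17.2% lower and 20.4% higher on number 1. Microglial markers were mostly higher on number 1, 10 of 15 with 1 lower and a median of 0.40, for example Fcer1g (0.83), Cd68 (0.77) and Aif1 (0.75), with Trem2 lower (-0.68). The median microglial level of an array was 8.51 to 9.47 on number 1 and 8.73 to 9.34 on numbers 2 and 3. It was higher on number 1 in siCon (9.47 against 9.34 and 9.25) and siCon_IFNg (9.36 against 9.14 and 9.14). In the groups with GW it was lower on number 1. There it was 8.51 against 8.75 and 8.86 in siCon_IFNg_GW, and 8.67 against 8.80 and 8.73 in siSHP_IFNg_GW. All 14 cell cycle genes were lower, with a median of -1.14, and their median level was 7.23 to 7.59 on number 1 and 8.29 to 8.52 on the others. Of 12 astrocyte genes 4 were higher and 5 lower, with a median of -0.18 and array medians of 10.55 to 10.81 on number 1 and 10.44 to 10.82 on the others. Oligodendrocyte markers were lower in 4 of 11 and higher in 1, led by Pdgfra (-1.77), which is also on the leptomeningeal list, and Olig1 (-1.16). Of 10 neuronal markers 3 were lower and Gad1 higher (1.91). The oligodendrocyte and neuronal counts are near the share of all genes, so nothing particular to these 2 lists is read from them. The part of these cell types and of proliferation in the difference of the matrix genes was not tested.

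**Figure D3:**
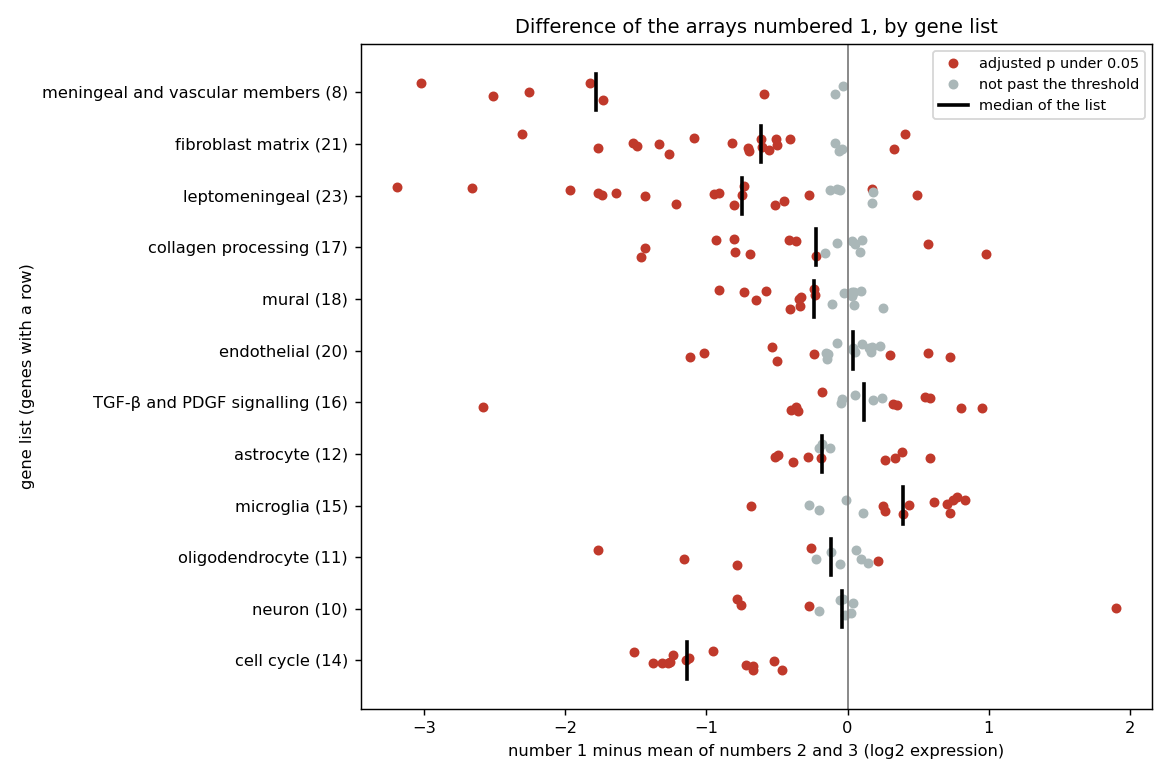
Difference in log2 expression, number 1 minus the mean of numbers 2 and 3, for each gene with a row in 12 lists; points are genes, red where the adjusted p is under 0.05, with random vertical spread, and black lines are medians of the measured differences. Medians run from -1.78 for the 8 genes described here to 0.40 for microglia.

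The comparison of siCon_IFNg with siCon asks what IFN-γ changed within 3 h. The treatment fits over 12 arrays compare group means and do not pair arrays of the same number, while those with title number as a block do. Over the 12 arrays 0 of the 8 genes passed (limma, adjusted p under 0.05), as did 0.121% of all genes, and 1 of the 8, Pdgfrb, had an unadjusted p under 0.05. Pdgfrb was at 9.30, 8.91 and 8.98 in siCon_IFNg, arrays 1 to 3, and at 9.50, 9.49 and 9.61 in siCon. Each siCon_IFNg array was below the siCon array of its number, by 0.21, 0.59 and 0.63. How many of all genes had such an order was not counted. The difference was -0.47 ± 0.13 (SE, n = 3 each, adjusted p = 0.37). With title number as a block it was the same size and still missed the threshold (adjusted p = 0.129), where 0.936% of all genes passed. Without number 1, Pdgfrb fell by 0.61 on the log2 scale, 1.52-fold (SE 0.09, n = 2 each, adjusted p = 0.0076), where 4.71% of all genes passed, 1.66% lower and 3.05% higher. Over 19 alternatives its adjusted p ran from 0.0076 to 0.945, and removal of number 1 was the 1 setting that called it.

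Of the 3 collagen chains 0 passed with IFN-γ (limma; 0 at an unadjusted p under 0.05). Col1a1 differed by -0.04, Col1a2 by 0.00 and Col3a1 by 0.04. The intervals over 12 arrays were wide, -2.10 to 2.01 for Col1a1, because they hold the gap between numbers. With the number as a block they narrowed to -0.42 to 0.34 for Col1a1, -0.25 to 0.26 for Col1a2 and -0.32 to 0.40 for Col3a1. Dcn (-0.19), Lum (-0.09), Rgs5 (0.02) and Cldn5 (-0.12) did not pass in any of the settings run.

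With GW added to IFN-γ, siCon_IFNg_GW against siCon_IFNg, 0 of the 8 genes passed over 12 arrays (limma, 1 at an unadjusted p under 0.05), against 0.886% of all genes. Pdgfrb was at 9.26, 9.48 and 9.63 in siCon_IFNg_GW against 9.30, 8.91 and 8.98 in siCon_IFNg. Numbers 2 and 3 were higher with GW, by 0.57 and 0.65, and number 1 differed by -0.03. The difference was 0.40 ± 0.13 (adjusted p = 0.216; with the block 0.083, where 6.55% of all genes passed). Without number 1 it rose 1.53-fold (0.61 ± 0.09, n = 2 each, adjusted p = 0.0043, of a range of 0.0043 to 0.528 over 19 alternatives). In that setting 11.5% of all genes passed, 4.98% lower and 6.47% higher. On numbers 2 and 3 Pdgfrb thus averaged 9.33 in siSHP_IFNg_GW, 9.55 in siCon_IFNg_GW, 8.94 in siCon_IFNg and 9.55 in siCon. The comparisons with IFN-γ alone share its arrays, so a low value there enters both.

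Lum was the other gene that moved with GW on numbers 2 and 3. It was at 4.85 and 5.43 in siCon_IFNg_GW, the first at background, against 6.22 and 6.27 in siCon_IFNg. It fell by 1.11 there (SE 0.16, n = 2 each, adjusted p = 0.0043), at least 1.83-fold, and over 12 arrays the difference was -0.75 ± 1.08 (adjusted p = 0.89; with the block 0.273). Its adjusted p ran from 0.0043 to 0.993 over 19 alternatives. On number 1, where Lum was at background with and without GW, the difference was -0.03. Its fellow proteoglycan Dcn was at 7.78 and 7.94 in siCon_IFNg_GW against 8.40 and 8.14 in siCon_IFNg on numbers 2 and 3. That difference of -0.41 ± 0.12 missed the threshold (adjusted p = 0.0658, of a range of 0.0658 to 0.988). The collagens differed by -0.03 for Col1a1, -0.23 for Col1a2 and -0.11 for Col3a1 without number 1, and 0 of the 3 passed (1 at an unadjusted p under 0.05, limma). In that setting microglial markers were lower with GW, 8 of 15 with 1 higher and a median of -0.38. Their median level was 8.75 and 8.86 in siCon_IFNg_GW against 9.14 and 9.14 in siCon_IFNg on numbers 2 and 3, and their part in the result was not tested.

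**Figure D4:**
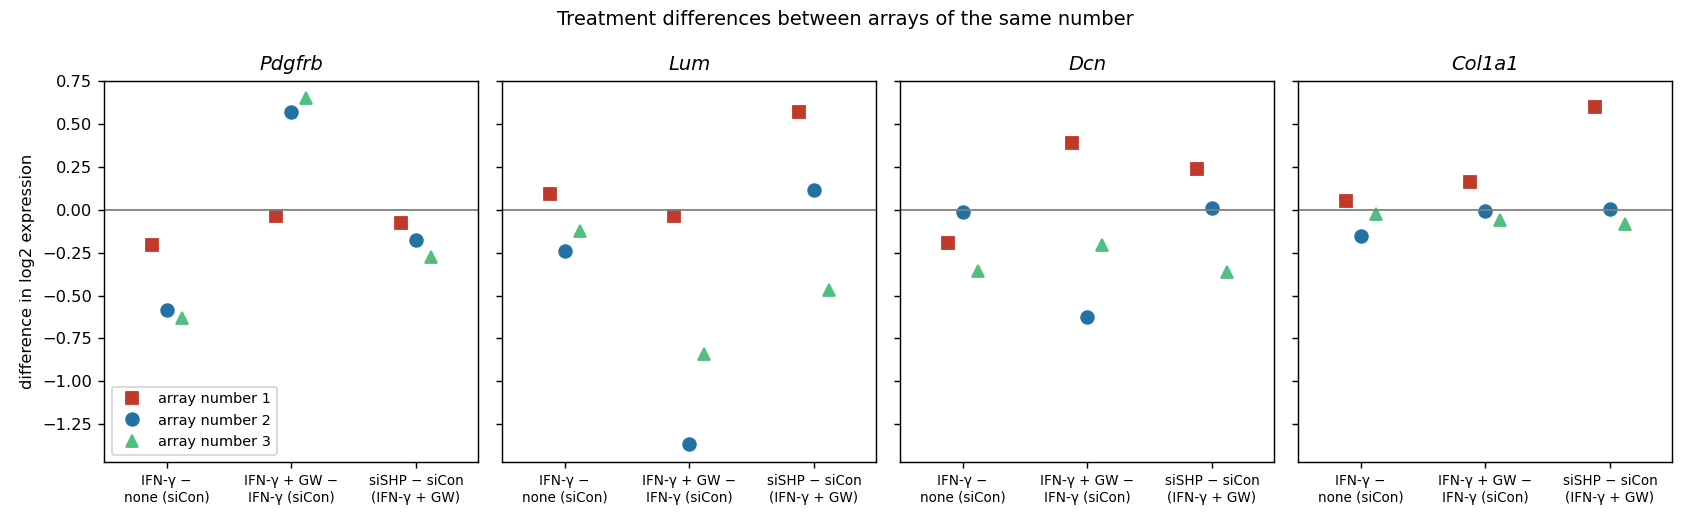
Differences in log2 expression between arrays of the same title number for Pdgfrb, Lum, Dcn and Col1a1; each point is 1 pair of arrays, for IFN-γ minus no further treatment, IFN-γ with GW minus IFN-γ, and SHP siRNA minus control siRNA. For Pdgfrb the pairs numbered 2 and 3 lie at -0.59 and -0.63 with IFN-γ and at 0.57 and 0.65 with GW, and for Lum the pair numbered 1 lies near 0 with GW.

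Between siSHP_IFNg_GW and siCon_IFNg_GW, 0 of the 8 genes and 0.0% of all genes passed (limma; 0 of the 8 and 416 of all genes had an unadjusted p under 0.05). Pdgfrb was at 9.19, 9.30 and 9.36 in siSHP_IFNg_GW and 9.26, 9.48 and 9.63 in siCon_IFNg_GW, below in 3 of 3 pairs but overlapping, a difference of -0.17 (95% interval -0.45 to 0.10). Without number 1 it was -0.22 (adjusted p = 0.50, the lowest of 19 alternatives), where 1.47% of all genes passed. Col1a1 was at 8.88, 10.47 and 10.57 against 8.28, 10.47 and 10.65, so the pair numbered 1 differed by more than the others, and its difference was 0.18 (95% interval with the block -0.21 to 0.56). The test of any difference among the 4 groups passed for 0 of the 8 genes and 1.26% of all genes (limma; 1 of the 8 at an unadjusted p under 0.05). Without number 1 it passed for Lum (adjusted p = 0.0014), Pdgfrb (0.0093) and Dcn (0.0122), 3 of 8, where 12.4% of all genes passed. Over 18 alternatives these adjusted p reached 1.0000 for Lum, 0.531 for Pdgfrb and 1.0000 for Dcn, and no other setting called them.

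Whether treatment acted differently on number 1 was tested with an interaction, which takes its spread from numbers 2 and 3 alone and assumes that number 1 varies like them. It passed for 0 of the 8 genes in each of the 3 comparisons, against 2.43%, 3.02% and 0.721% of all genes (limma; 1, 3 and 4 of the 8 at an unadjusted p under 0.05). With GW the change on number 1 minus that on numbers 2 and 3 was -0.64 for Pdgfrb (adjusted p = 0.0814), 0.80 for Dcn (0.0979) and 1.07 for Lum (0.104). These adjusted p ran from 0.0312 to 0.189, from 0.0395 to 0.212 and from 0.0107 to 0.183 over 11 alternatives, so the call depends on the setting. Dcn and Lum were at background on number 1 with and without GW, where a fall could not be seen, so no difference between the numbers is read from their interaction. Pdgfrb, over background on all 12 arrays, passed under the low-value filter, where 7.14% of the genes tested passed, and with arrays centred on their medians, where 3.63% passed. With IFN-γ the interaction was 0.40 for Pdgfrb (adjusted p = 0.344, range 0.210 to 0.571). For the 3 collagen chains, over background on all arrays, the gap between number 1 and the others was narrowest in siSHP_IFNg_GW. Dcn, Lum and Rgs5 were at background on some or all arrays numbered 1, so their gaps are not read. How many of all genes share this order was not counted. Each gap rests on 1 array numbered 1, and the 3 chains followed each other closely across arrays. No effect of SHP siRNA is therefore read from this order. For Col1a1 the gap was -1.64 in siSHP_IFNg_GW, -2.28 in siCon_IFNg_GW, -2.48 in siCon_IFNg and -2.62 in siCon. The interaction for SHP siRNA was 0.64 for Col1a1 (adjusted p = 0.224) and 0.69 for Col3a1 (0.113), and a low-value filter brought Col3a1 past the threshold (0.0409, the lowest of 11 alternatives, which reached 0.273), where 2.71% of the genes tested passed.

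The 115 genes of the related lists were followed through the treatments. Over 12 arrays 0 passed in any of the 3 comparisons (limma; 5 with IFN-γ, 13 with GW and 3 with SHP siRNA at an unadjusted p under 0.05). With the number as a block 2 were lower with IFN-γ, where 0.936% of all genes passed, the gap junction gene Gjb2 (-0.53) and the transcription factor Tbx2 (-0.42), at background on 2 of 3 siCon_IFNg arrays. With GW 6 were higher and 1 lower under the block, a share of the 115 close to the 6.55% of all genes, so nothing particular to the lists is read from it. These were the TGF-β inhibitor Smad7 (1.03, at background on 2 of 3 siCon_IFNg arrays), the TGF-β signal transducer Smad3 (0.51), the matricellular gene Ccn2 (1.24), the transporters Mfsd2a (0.76) and Slco1c1 (0.83), the muscle gene Lmod1 (0.50) and, lower, the ligand Pdgfa (-0.73).

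Without number 1, 10 of the 115 passed with IFN-γ, 9 lower and 1 higher, where 4.71% of all genes passed, 1.66% lower and 3.05% higher. The ligand gene Pdgfb fell by 0.81, to an average of 5.56 in siCon_IFNg, near the background limit of 5.32. The ligand gene Pdgfa rose by 0.64. Ccn2 fell by 1.03, Thbd, which encodes thrombomodulin, by 0.66 and the leptomeningeal transcription factor Foxc1 by 0.44. With GW 19 passed, 13 higher and 6 lower, where 11.5% of all genes passed, 6.47% higher and 4.98% lower. Ccn2 rose by 1.76, the inhibitory Smad6 by 0.82, Foxc1 by 0.89 and Slco1c1 by 1.03, and Pdgfa fell by 0.93. On numbers 2 and 3 Ccn2 averaged 9.01 in siSHP_IFNg_GW, 9.42 in siCon_IFNg_GW, 7.65 in siCon_IFNg and 8.69 in siCon. Of the 21 fibroblast matrix genes 0 passed in either comparison (limma; 1 with IFN-γ and 5 with GW at an unadjusted p under 0.05). With SHP siRNA Slco1c1 was the 1 gene of the 115 that passed, and it was lower (-0.68), where 1.47% of all genes passed.

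Across the 12 arrays the 3 collagen chains followed each other closely, with Pearson's r of 0.997 between Col1a1 and Col3a1. The 12 arrays fall into 2 sets by number, so the same r was also taken over the 8 arrays of numbers 2 and 3, where it was 0.88. Dcn and Lum had r of 0.96 over 12 arrays and 0.94 over 8. Pdgfrb had r of 0.05 with Col1a1 over 12 arrays and 0.27 over 8. The genes most like each member over 12 arrays were Tgfbi for Col1a1 (0.997, 0.66 over 8) and for Col3a1 (0.997, 0.77 over 8), the scavenger receptor Colec12 for Col1a2 (0.997, 0.87 over 8) and Ptprz1 for Dcn (0.993, 0.81 over 8). For Lum they were Lyve1, a hyaluronan receptor (0.98, 0.96 over 8), and Fmo1 (0.98, 0.97 over 8), and for Pdgfrb Rmnd5b (0.94, 0.98 over 8). Rgs5 was most like Cfap47 (0.96, 0.57 over 8). Cldn5 was most like the olfactory receptor gene Olr1675 (0.88, 0.89 over 8), both near background. These are descriptions of shared arrays, given without a test.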

How the data were processed

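Total RNA of 12 astrocyte samples was hybridised to whole-transcript arrays after biotin labelling, per the labels' protocols. The deposited table holds log2 values, 1 per row and array, made by the authors. Their background correction and normalization are not given in the sources used here. The log base was read from the range, 1.01 to 13.43.

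Of 36685 rows, the platform annotation pairs 18511 with 1 gene, 575 with several and 17599 with none. Entrez IDs matched 18394 to RefSeq (GRCr8), which changed 0 symbols. Of several rows for a gene (291 genes) the one with the highest mean was kept, which left 18166 genes. Array medians ran from 5.51 to 5.67, and no further normalization was applied. Columns of other samples numbered 0. As these are arrays, their number limits the precision.

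Groups and numbers come from the titles. Comparisons were fitted with limma 3.58.1 in R 4.3.3 across all genes, with Benjamini-Hochberg adjustment and a threshold of 0.05: group means over 12 arrays, title number with group, and an interaction of number 1 with treatment. The code was tested on simulated data. Alternatives were a replicate block, median centring, quantile normalization, the mean of a gene's rows, a filter (over 5.32 on 3 arrays, 12956 genes), the 2 groups alone, omission of number 1 and of single arrays. Arrays of the same number deviated together from their group means (r 0.63 to 0.77, 0.48 to 0.58 and 0.43 to 0.55 for numbers 1, 2 and 3). Differences between arrays of the same number are therefore shown as well. The main treatment fits did not use this pairing, and among the alternatives the replicate block did. Figures used matplotlib 3.10.9 in Python 3.11.15.

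The members, lists and tests were chosen with earlier results of these data known. Named were all members, Nr0b2, up to 4 genes of a list by p and the genes most like each member; Fmod, Eln, Sparc, Aldh1a2, Ptgds, Serpinh1, Tagln, Cspg4 and the endothelial genes at background were named after their values were seen.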

Additional observations from a re-analysis of the deposited data

How the results depend on the processing

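The 6 genes lower on number 1 kept direction and call in all 16 alternatives. Treatment results depended on number 1. Without it 1 member was called with IFN-γ (Pdgfrb), 2 with GW (Pdgfrb, Lum) and 3 in the test of any difference, and over all genes 856, 2081, 267 (SHP siRNA) and 2254 were called, against 22, 161, 0 and 229 over 12 arrays. The replicate block gave 170, 1189 and 1563 genes for IFN-γ, GW and any difference, and changed no member's call. Centring on medians gave 79 genes with GW and 133 in any difference, and only the 2 groups compared gave 7 with IFN-γ and 4 with GW. In the interaction the low-value filter called 3 members (Dcn, Lum, Pdgfrb) and 925 genes with GW, and 1 member (Col3a1) and 351 genes with SHP siRNA, and centring called 1 member, Pdgfrb, with GW. Lum, and nearly so Dcn, passed that filter through numbers 2 and 3 alone, so nothing is read from their calls in it. With the filter fewer genes are tested; for the other settings the cause was not tested.

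Some differences changed sign, by small amounts here and by larger ones with single arrays left out, below. Without number 1 they were, with IFN-γ, Col3a1 -0.0447 and Rgs5 -0.0664, with GW, Col1a1 -0.0348, and with SHP siRNA, Col1a1 -0.0377, Col3a1 -0.0562 and Lum -0.177. With centring the number 1 differences of Pdgfrb and Cldn5 were 0.0595 and 0.0052.

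Leaving out 1 array at a time gave the following lowest and highest values. Genes called were 2 to 66 with IFN-γ, 27 to 412 with GW, 0 to 1 with SHP siRNA and 68 to 438 for any difference. In the interaction they were 265 to 382, 314 to 505 and 41 to 141 for IFN-γ, GW and SHP siRNA, and 0 to 1 members with GW (Lum, without siCon_IFNg_GW replicate 3). IFN-γ differences ran from -0.9165 to 0.7834 for Col1a1, -0.6471 to 0.6785 for Col1a2, -0.6597 to 0.6567 for Col3a1, -1.3634 to 0.9891 for Dcn, -1.237 to 0.9673 for Lum and -0.3378 to 0.2883 for Rgs5. With GW they ran from -0.7955 to 0.7912 for Col1a1, -0.8562 to 0.4446 for Col1a2, -0.723 to 0.5043 for Col3a1, -1.3241 to 0.7632 for Dcn, -0.0586 to 0.363 for Rgs5 and -0.0127 to 0.2991 for Cldn5. With SHP siRNA they ran from -0.5854 to 0.7229 for Col1a1, -0.4791 to 0.6338 for Col1a2, -0.4383 to 0.5562 for Col3a1, -0.9462 to 0.7351 for Dcn, -0.6271 to 0.5661 for Lum, -0.2272 to 0.0219 for Rgs5 and -0.3046 to 0.0071 for Cldn5. For number 1, Pdgfrb ran from -0.1629 to 0.052 and Cldn5 from -0.2176 to 0.0049. For number 2 minus number 3, Dcn ran from -0.0997 to 0.1772, Lum from -0.3696 to 0.0395 and Rgs5 from -0.0375 to 0.2423. Single arrays of the interaction were left out as an alternative added after the data were seen. Signal over background limits Cldn5, Lum and, on number 1, Dcn.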
